A study of Rattus norvegicus with 16 samples.

Results

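The early response of the distal sciatic nerve to injury was measured on 8 of the 16 arrays of the series, 4 of injured nerve and 4 of contralateral nerve, all taken 3 d post injury (DPI). The members of both groups came from the array titles, and no measured value was used to choose them. The injured nerves were distal segments from 6-week-old male Sprague Dawley rats after a unilateral resection of the sciatic nerve in the right hindlimb, with the distal stump placed so that axons would not grow back into it. The contralateral nerves were the uninjured sciatic nerves of the injured rats, so both groups carried the same surgery, anesthesia and pain relief (buprenorphine and ketoprofen or meloxicam) elsewhere in the body, and a contralateral nerve is not the nerve of an unoperated animal. The labels call the 4 arrays of a group biological replicates and do not say which 2 nerves came from the same rat. RNA was read on Affymetrix Rat Gene 2.0 ST arrays, in which the brightness of many short probes along a gene is summarised as a level on a log2 scale (RMA values, quantile normalised), so a difference of 1 is a 2-fold change. Levels are given per array in the order of the replicate numbers, which is no ranking, and they are compared between groups for a gene and not between genes. Because every array was given nearly the same distribution of values, a shift shared by most genes would not be seen.

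When a peripheral nerve is cut, the axons beyond the cut break down, a process called Wallerian degeneration. Schwann cells, the glia that wrap the axons, then leave their myelinating state, divide, and take on a repair state that clears myelin and releases signals, while macrophages gather from blood and from within the nerve to take up debris. Perineurial, endothelial, mural and mesenchymal cells, which form the sheaths and vessels of the nerve, stay in the distal segment. Levels in whole nerve mix all these cells, and fewer cells of a type and less RNA per cell cannot be told apart here.

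At 3 DPI, 1055 of 18166 genes were called, meaning an adjusted p under 0.05 (limma, Benjamini-Hochberg over all genes) and a change of at least 2-fold. This is a background of 5.81% of genes in either direction, with 591 genes higher (3.25%) and 464 lower (2.55%). Genes of myelin, sterol synthesis and cell division, 297 measured genes of which 187 were called, were set aside, and what follows describes the other 868 called genes, 438 higher and 430 lower. Of these, 861 had injured and contralateral arrays that did not overlap, as had 6153 of all 18166 genes, most of them with smaller changes. The change was at least 4-fold for 65 higher and 86 lower genes and at least 8-fold for 16 and 16. In contralateral nerves, 167 of the 438 higher genes had a mean level under the median of all genes (6.92), against 25 of the 430 lower genes.

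**Figure D1:**
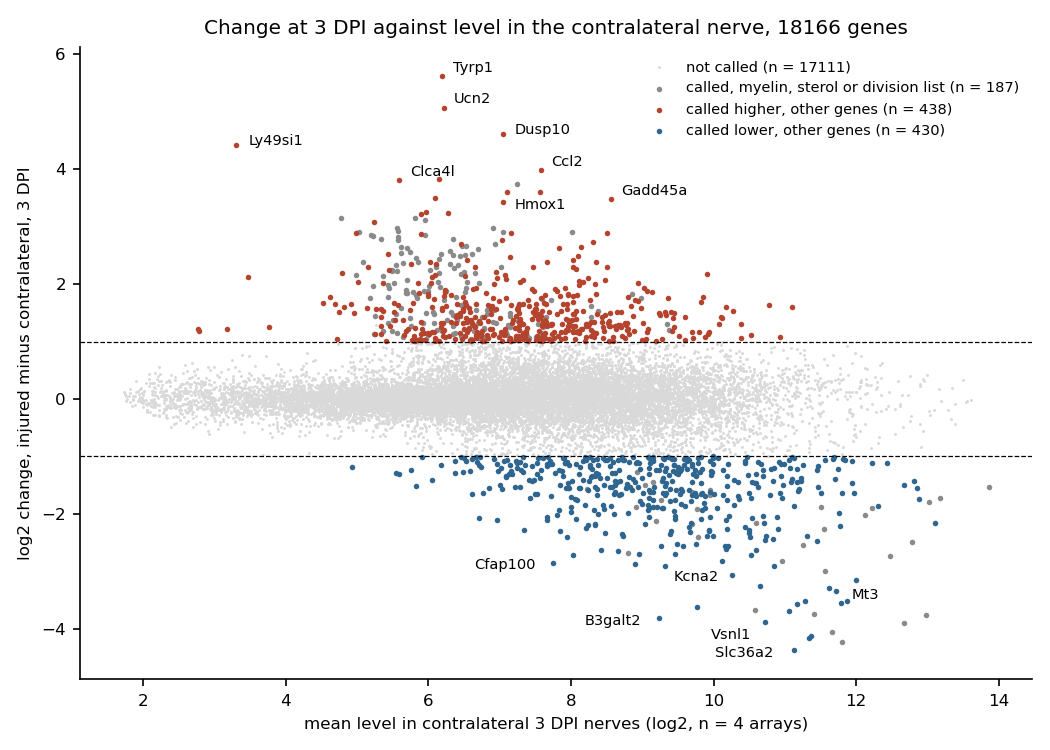
Each point is a gene, with its mean level in contralateral 3 DPI nerves on the horizontal axis (log2, n = 4 arrays) and the log2 change, injured minus contralateral, on the vertical axis. Red and blue points are genes called higher (438) and lower (430) outside the myelin, sterol and division lists, whose 187 called genes are dark grey, light grey points are not called, and dashed lines mark a 2-fold change. Tyrp1 and Ucn2 lie at the top, and the genes at the bottom, such as Slc36a2 and Mt3, had high levels in contralateral nerves.

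Defining markers of the nerve's cells were compared first. The mean level of 8 Schwann cell markers was 9.24 to 9.32 in injured nerves, against 9.17 to 9.43 in contralateral nerves. By the adjusted p alone, 1 of these markers was higher and 4 were lower, with a median change of -0.21. Sox10, the transcription factor that defines the Schwann cell lineage, had levels of 8.77, 8.64, 8.58 and 8.51 in injured nerves, against 8.65, 8.96, 9.01 and 8.65 in contralateral nerves, a change of -0.19 ± 0.11 that was not called (adjusted p = 0.228). Markers of mesenchymal, endoneurial, epineurial and mural cells had no called gene, but by the adjusted p alone 3 of 8 general mesenchymal markers were higher and 1 lower, 0 of 7 endoneurial markers higher and 4 lower (median -0.23), 1 of 5 epineurial markers higher and 1 lower, and 1 of 9 mural markers higher and 4 lower. Endothelial markers had 0 called higher and 1 lower of 10 (10% lower), and perineurial markers 1 higher and 1 lower of 8 (12.5% each). Mast cell markers had 1 higher and 0 lower of 8 (12.5% higher). Of all genes, 3.25% were higher and 2.55% lower. Pdgfra, the receptor that marks the mesenchymal cells of the nerve, averaged 11.07 ± 0.06 in injured nerves and 10.80 ± 0.20 in contralateral nerves (SD, n = 4 each), and Rgs5, a marker of pericytes and vascular smooth muscle, averaged 10.30 ± 0.19 in injured nerves and 10.62 ± 0.13 in contralateral nerves (SD, n = 4 each). The Schwann cell markers held 1 called increase, Ngfr, and 1 called decrease, Egfl8, a secreted protein with EGF repeats (-1.54 ± 0.14, adjusted p = 1.6e-07). Macrophage and monocyte markers held most of the called markers, with 15 of 17 called higher, a median change of 1.53 and a mean level of 9.50 to 9.74 in injured nerves, against 7.69 to 8.44 in contralateral nerves. Neutrophil markers had 2 of 11 called higher (18.2%) and T and natural killer cell markers 1 of 12 (8.33%), against 3.25% of all genes. B cell markers had 0 of 5 (0 at an unadjusted p under 0.05). The neutrophil marker Mmp8 was called but lay between 0.88 and 0.98 without contralateral replicate 2 or 4 or injured replicate 2 or 4. The mean level of 11 adipocyte markers was 6.65 to 7.10 in injured nerves, against 6.67 to 7.56 in contralateral nerves, with the highest value in contralateral replicate 1.

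The largest rise was that of Tyrp1, an enzyme of melanin synthesis known from pigment cells. Its levels were 11.40, 12.01, 11.84 and 12.03 in injured nerves, against 5.74, 6.12, 5.80 and 7.10 in contralateral nerves. All injured arrays lay more than 4 log2 units above every contralateral array, of which replicate 4 was the highest, and the change was 5.63 ± 0.38 (49.5-fold, adjusted p = 4.68e-09). Of 15 measured melanin and melanocyte genes 2 were called, Tyrp1 and Gpnmb (13.3% higher, against 3.25% of all genes). By the adjusted p alone 4 were higher and 0 lower, and the list median was 0.04. Gpnmb, a glycoprotein first described in melanoma and also made by macrophages laden with lipid, rose by 2.88 ± 0.18 (adjusted p = 1.45e-09).

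Ucn2 encodes urocortin 2, a secreted peptide of the corticotropin-releasing hormone family that acts on the CRH type 2 receptor. It had levels of 11.10, 11.27, 11.43 and 11.35 in injured nerves, against 6.13, 6.04, 6.08 and 6.61 in contralateral nerves. The groups did not come near each other, and the rise of 5.07 ± 0.18 was 33.7-fold (adjusted p = 3.18e-12). Among 42 measured peptide hormones and neuropeptides, 4 rose and 0 fell (9.52% higher, against 3.25% of all genes), with a list median of -0.04. Adm, the vasodilator peptide adrenomedullin, rose by 1.32 ± 0.12 (adjusted p = 2.86e-07). Edn3, endothelin 3, a growth signal of neural crest cells, passed both thresholds at 1.10 ± 0.15 but reached only 0.92 without injured replicate 1, and Kng1, the kinin precursor, was called as well but lost its call without contralateral replicate 4. The levels of Kng1 averaged 5.02 ± 0.49 in injured nerves and 3.76 ± 0.54 in contralateral nerves (SD, n = 4 each), and only 4.50% of genes were dimmer in contralateral nerves, so no fold is given for it.

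The 250 bases before the start of each gene were searched for 2 short motifs, in RefSeq sequence of the rat assembly GRCr8. The first was TGANTCA with any base at N, which reads the same on both strands apart from its middle base. It is called the AP-1 motif here, but AP-1 dimers of Jun and Fos proteins bind the forms TGAGTCA and TGACTCA. The shares also count matches with A or T in the middle, such as TGATTCA in Clca4l. The second was TGATGNAA, searched on both strands, a composite site of ATF4 and C/EBP proteins. The AP-1 motif was held by 6 of the 18 promoters matched to the 20 largest increases (33.3%) and by 2 of the 15 matched to the 20 largest decreases (13.3%). It was held by 9.09% of 352 promoters of all higher genes outside the lists set aside, 6.69% of 329 of lower genes, and 5.63% of 14503 of all genes tested. The ATF4 composite motif was held by 0.852% of the higher, 2.13% of the lower and 2.61% of all promoters. These shares are descriptions of letters and carry no test. The whole window of Ucn2 is shown, with the motif in capitals, because it was the gene with the largest rise among those holding a match (chr8:118515861-118516110, plus strand, 5′ to 3′). The match began 167 bases before the gene start.

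Ucn2: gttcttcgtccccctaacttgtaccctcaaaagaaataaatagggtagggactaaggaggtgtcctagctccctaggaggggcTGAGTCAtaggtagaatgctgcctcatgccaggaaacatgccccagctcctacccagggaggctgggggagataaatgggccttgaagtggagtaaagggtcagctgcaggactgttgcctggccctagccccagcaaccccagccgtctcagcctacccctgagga

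The stretches around the match in the other 5 of these increases, and in Cntf among the decreases, show up to 30 bases on either side with the motif in capitals, 5′ to 3′ on the strand of the gene.
Clca4l: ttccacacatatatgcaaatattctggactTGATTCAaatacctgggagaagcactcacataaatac
Mcoln3: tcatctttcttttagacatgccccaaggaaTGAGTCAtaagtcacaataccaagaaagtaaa
Olr1: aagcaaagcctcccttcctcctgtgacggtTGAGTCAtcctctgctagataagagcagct
Gpnmb: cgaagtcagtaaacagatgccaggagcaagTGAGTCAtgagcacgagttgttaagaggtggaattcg
Lrrc15: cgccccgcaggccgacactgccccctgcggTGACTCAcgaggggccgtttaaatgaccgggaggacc
Cntf: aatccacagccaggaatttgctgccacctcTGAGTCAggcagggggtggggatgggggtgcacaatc

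They lie at chr2:236506505-236506571, minus strand for Clca4l, chr2:237668944-237669005, plus strand for Mcoln3, chr4:164634548-164634607, minus strand for Olr1, chr4:79341011-79341077, plus strand for Gpnmb, chr11:83974629-83974695, plus strand for Lrrc15 and chr1:219314571-219314637, minus strand for Cntf. The matches began 58, 32, 30, 87, 49 and 72 bases before the gene start in that order.

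Dusp10 encodes a phosphatase that switches off the stress kinases JNK and p38. Its levels were 11.70, 11.57, 11.66 and 11.69 in injured nerves, against 7.08, 6.98, 6.83 and 7.27 in contralateral nerves, a narrow spread in both groups, and it rose by 4.62 ± 0.12 (24.5-fold, adjusted p = 2.1e-13). It was the only called gene among 18 measured MAP kinase phosphatases and Sprouty brakes (5.56% higher, against 3.25% of all genes). The list median was 0.10, and a second gene was called without injured replicate 3. Rgs16, which shortens signals of G protein-coupled receptors, had levels of 11.27, 11.07, 11.12 and 11.17 in injured nerves, against 7.35, 7.33, 7.56 and 7.99 in contralateral nerves, and it rose by 3.60 ± 0.13 (adjusted p = 3.37e-12). Gadd45a, a growth arrest and DNA damage gene, had levels of 12.24, 11.77, 12.08 and 12.09 in injured nerves, against 8.39, 8.16, 8.74 and 8.95 in contralateral nerves, again with no overlap, and rose by 3.49 ± 0.15 (adjusted p = 2.09e-11).

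Ccl2, the chemokine that draws monocytes, had levels of 12.05, 11.50, 11.08 and 11.61 in injured nerves, against 7.88, 7.47, 7.03 and 7.91 in contralateral nerves, with the lowest contralateral value in replicate 3, and it rose by 3.98 ± 0.27 (adjusted p = 4.22e-09). Btc, betacellulin, which binds EGF receptors, had levels of 9.84 to 10.06 in injured nerves, against 5.91 to 6.29 in contralateral nerves, far apart, and rose by 3.83 ± 0.11 (adjusted p = 3.13e-13). Fgf5, a fibroblast growth factor, rose by 3.50 ± 0.15 (adjusted p = 2.05e-11). Clca4l, named after the accessory proteins of calcium-activated chloride channels, was less even, with levels of 9.08, 8.86, 9.55 and 10.10 in injured nerves, against 5.79, 5.26, 5.36 and 5.96 in contralateral nerves and a rise of 3.81 ± 0.24 (adjusted p = 2.34e-09). Mcoln3, a cation channel of endosomes, was more spread still, at 9.22 ± 1.21 in injured and 5.97 ± 0.22 in contralateral nerves (SD, n = 4 each). It rose by 3.25 ± 0.41 (adjusted p = 8.31e-06). Ly49si1, a member of the Ly49 family of lectin-like receptors of natural killer and myeloid cells, had levels of 8.19, 6.88, 7.54 and 8.28 in injured nerves, against 3.37, 3.14, 3.0 and 3.71 in contralateral nerves, and it rose by 4.42 ± 0.38 (adjusted p = 1e-07). The contralateral levels of Ly49si1 all lay under the lower quartile of gene means (5.75), and Ly49 genes are near-identical copies whose probes can share signal. Contralateral means also lay under this quartile for Il1rn (4.62), Olr1 (4.98), Steap1 (5.01), Hmga2 (5.23), Atp6v0d2 (5.44) and Clca4l (5.59), among others named here.

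**Figure D2:**
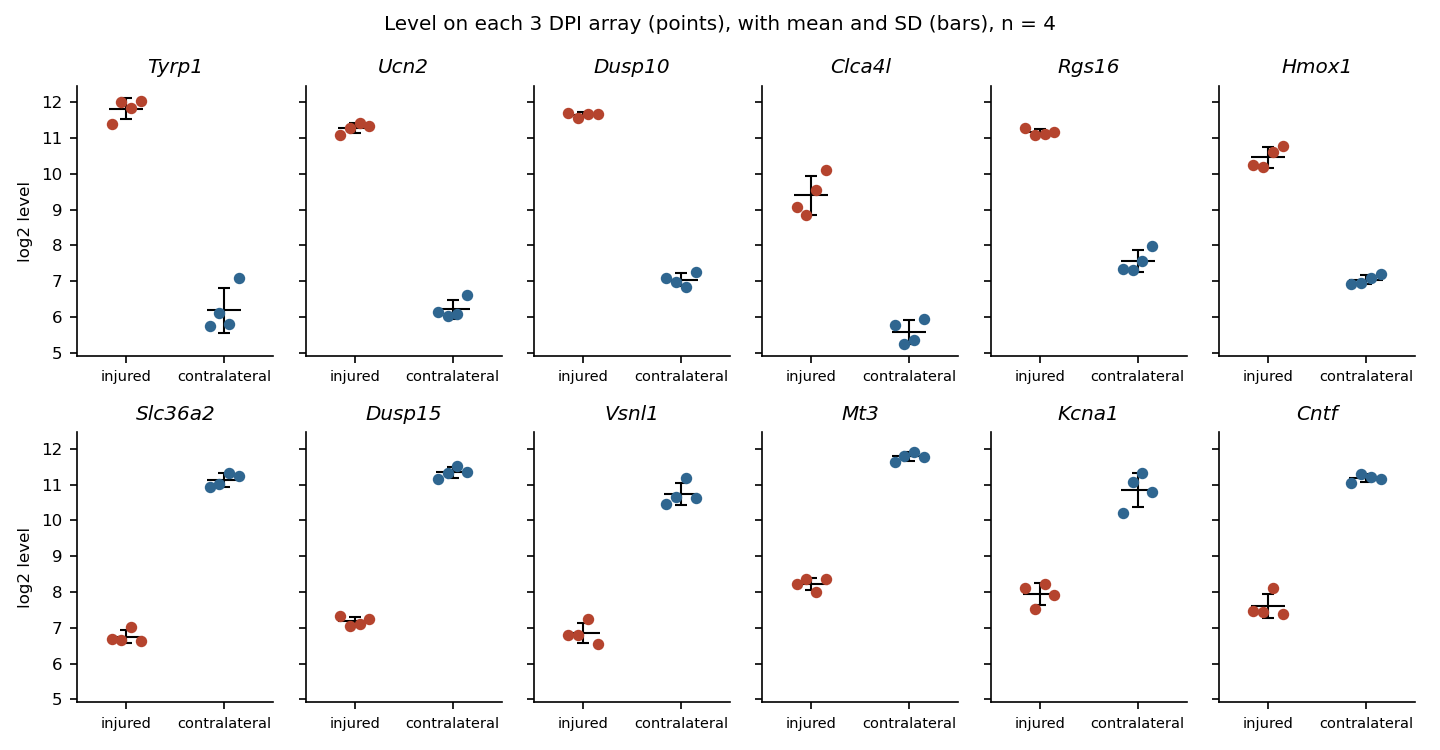
Log2 level of 12 genes on each 3 DPI array, injured nerves in red at the left of each panel and contralateral nerves in blue at the right, with the mean and SD of 4 arrays. In the upper row, which holds increases, and the lower row, which holds decreases, no injured array overlaps a contralateral array. Tyrp1 rose by 5.63 ± 0.38 and Slc36a2 changed by -4.38 ± 0.13 on the log2 scale (± SE).

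Of 55 measured transcription factors of injury and of the neural crest, 11 rose and 1 fell, 20% and 1.82% of the list against the background of 3.25% and 2.55%, with a median change of 0.13. Runx2, best known as the regulator of bone formation, had levels of 10.83, 10.65, 10.61 and 10.71 in injured nerves, against 7.01, 7.20, 6.95 and 7.25 in contralateral nerves, and it rose by 3.60 ± 0.13 (12.1-fold, adjusted p = 4.44e-12). Hmga2, a chromatin protein of fetal and dividing cells, had levels of 8.45, 8.31, 8.15 and 8.37 in injured nerves, against 5.24, 5.40, 4.90 and 5.39 in contralateral nerves and rose by 3.09 ± 0.19 (adjusted p = 1.92e-09). The AP-1 proteins on the list rose as well. Jun, the factor that drives the repair state of Schwann cells, had levels of 10.76, 10.51, 10.51 and 10.72 in injured nerves, against 8.79, 8.82, 8.82 and 9.16 in contralateral nerves, with contralateral replicate 4 above the other contralateral arrays, and rose by 1.73 ± 0.11 (adjusted p = 2.13e-09). Fosl1, its partner, rose by 2.70 ± 0.19, and Atf3, a stress-induced factor, by 2.30 ± 0.11. Pou3f1, a factor of Schwann cells about to myelinate, was not called at -0.12 ± 0.10 (adjusted p = 0.43). The only called decrease, Id2, an inhibitor of basic helix-loop-helix factors, stood at -1.03 ± 0.13 and lay at -0.98 without injured replicate 1 and at -1.0 without contralateral replicate 3, while a second gene was called lower without contralateral replicate 1. Runx1 (1.01 ± 0.11) and Irf8 (1.03 ± 0.15), factors of blood cell formation, were also near the fold minimum. Runx1 lay at 0.94 without contralateral replicate 3, at 0.99 without injured replicate 2 and at 0.98 without injured replicate 4, and Irf8 at 0.94 without contralateral replicate 2.

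Among 50 receptor tyrosine kinases for growth factors and ephrins, 2 rose (4%, near the 3.25% of all genes) and 4 fell (8%, against 2.55%), with a median of -0.05, and 1 of the increases and 2 of the decreases lost their call when an array was left out. Met, the receptor of hepatocyte growth factor, had levels of 9.86, 9.68, 9.81 and 9.83 in injured nerves, against 7.41, 6.71, 6.72 and 7.27 in contralateral nerves, well apart, and rose by 2.77 ± 0.14 (6.82-fold, adjusted p = 2.24e-10). Csf1r, the receptor that macrophages need to survive, rose by 1.19 ± 0.18 and lay at 0.98 without contralateral replicate 3. Erbb4, a neuregulin receptor, was lower at -1.68 ± 0.16 (adjusted p = 2.66e-07), and Ephb6, an ephrin receptor without kinase activity, at -1.44 ± 0.13 (adjusted p = 1.78e-07). Ntrk2, the BDNF receptor, passed both thresholds at -1.09 ± 0.11 but reached only -1.0 without injured replicate 1, just under the minimum, and Ret, the GDNF receptor kinase, passed both thresholds at -1.07 ± 0.19 but reached only -0.94 without contralateral replicate 1.

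Receptors for cytokines and chemokines rose in 10 of 50 cases and fell in 0, which is 20% against the 3.25% of all genes, with a median of 0.42. Ngfr, the low-affinity neurotrophin receptor of repair Schwann cells, rose by 2.65 ± 0.13 (adjusted p = 1.46e-10). Osmr, the subunit that binds oncostatin M, had levels of 10.07, 10.33, 10.22 and 10.14 in injured nerves, against 8.18, 8.23, 8.51 and 8.50 in contralateral nerves, and rose by 1.84 ± 0.10 (adjusted p = 3.13e-10). Tnfrsf12a, the receptor of TWEAK, rose by 1.65 ± 0.09 (adjusted p = 2.89e-10). Ccr2, the receptor of Ccl2 on monocytes, was more spread, with levels of 9.85, 9.22, 10.08 and 9.98 in injured nerves, against 8.91, 7.50, 7.35 and 8.06 in contralateral nerves. It rose by 1.83 ± 0.39 (adjusted p = 0.00146), and its contralateral replicates 1 and 4 lay above 2 and 3. The mean of the macrophage markers, which include Ccr2, had the same order.

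Surface receptors of phagocytes formed the list with the largest share of increases among those described here. Of 52 measured, 29 rose and 0 fell (55.8% higher, against 3.25% of all genes). The median change was 1.16 against -0.01 over all genes, and 46 passed the adjusted p alone. Lilrb4, an inhibitory receptor of myeloid cells, rose by 3.25 ± 0.18 (adjusted p = 4.62e-10). Clec7a, which binds beta-glucans, had levels of 10.06, 9.85, 9.95 and 10.36 in injured nerves, against 7.61, 6.73, 6.76 and 7.53 in contralateral nerves, and rose by 2.90 ± 0.20 (adjusted p = 4.87e-09). Olr1, the receptor of oxidised low-density lipoprotein, rose by 2.90 ± 0.16 (adjusted p = 6.05e-10), and Tyrobp, the adaptor through which many of these receptors signal, by 1.99 ± 0.18 (adjusted p = 1.72e-07). Tlr13, a Toll-like receptor, passed both thresholds at 1.17 ± 0.22 but reached only 0.99 without contralateral replicate 3. Tlr1 was called but lay between 0.91 and 1.0, under the minimum, without contralateral replicate 1, 2 or 3 or injured replicate 4. Timd4 was called but lay between 0.88 and 0.99 without contralateral replicate 2 or 3 or injured replicate 1 or 3. The mean level of this list was 8.08 to 8.35 in injured nerves, against 6.85 to 7.21 in contralateral nerves. Beside it, 15 of 17 macrophage and monocyte markers rose, and Aif1, a calcium-binding protein of macrophages, rose by 1.27 ± 0.17 (adjusted p = 1.24e-05). The part of the macrophage markers in the rise of this list, and of the complement, antigen presentation and lysosome lists that follow, was not tested. Some genes, such as Tyrobp, Cd163 and Cd14, are both macrophage markers and members of the phagocyte receptor list. The markers C1qa, C1qb and C1qc are also complement genes and Cd68 a lysosome gene, so these counts are not independent.

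Complement genes rose in 6 of 26 cases and fell in 0 (23.1% higher, against 3.25% of all genes, median 0.51). C1qb, a chain of the C1q protein that opens the classical pathway, had levels of 10.21, 10.34, 10.26 and 10.56 in injured nerves, against 8.83, 8.12, 7.84 and 8.56 in contralateral nerves, with contralateral replicate 3 the lowest and replicate 1 the highest. It rose by 2.0 ± 0.21 (adjusted p = 8.78e-07), and C1qa and C1qc, the other chains, by 1.53 ± 0.18 and 1.53 ± 0.17. C3ar1, the receptor of the complement fragment C3a, rose by 1.49 ± 0.18 (adjusted p = 6.09e-06). Cfp passed both thresholds at 1.01 ± 0.15 but lay between 0.95 and 0.97 without contralateral replicate 2 or 3 or injured replicate 2. Of 17 genes of MHC class II and antigen presentation, 5 rose and 0 fell (29.4% higher, against 3.25% of all genes, median 0.32). The T cell costimulators Cd86 and Cd80 rose by 1.69 ± 0.17 and 1.22 ± 0.12, the protease Ctss by 1.51 ± 0.18, and RT1-DMb, which helps to load peptides, by 1.37 ± 0.20. Cd86 had levels of 8.12, 7.99, 8.14 and 8.55 in injured nerves, against 6.79, 6.28, 6.22 and 6.75 in contralateral nerves, with no overlap (adjusted p = 6.77e-07).

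Genes of the lysosome rose in 8 of 76 cases and fell in 1 (10.5% and 1.32%, against 3.25% and 2.55% of all genes, median 0.19). Atp6v0d2, a subunit of the proton pump known from osteoclasts and macrophages, had levels of 7.27, 8.15, 8.0 and 8.43 in injured nerves, against 5.15, 5.34, 5.61 and 5.65 in contralateral nerves and rose by 2.52 ± 0.20 (adjusted p = 3.86e-08). Lipa, the lysosomal acid lipase, rose by 2.48 ± 0.15 (adjusted p = 1.23e-09), and Cd68, a lysosomal protein of macrophages, by 2.26 ± 0.18 (adjusted p = 3.34e-08). Lamp3, a lysosomal membrane protein of mature dendritic cells, was lower at -1.53 ± 0.14 (adjusted p = 1.46e-07). On the list of inflammasome, interleukin 1 and prostaglandin genes, 6 of 36 rose and 1 fell (median 0.29). These are 16.7% and 2.78% of the list, against 3.25% and 2.55% of all genes. Il18, a cytokine released by the inflammasome, rose by 1.90 ± 0.16 (adjusted p = 6.27e-08) and Il1rn, the antagonist of interleukin 1, by 1.78 ± 0.19 (adjusted p = 1.14e-06). Pla2g4a, the phospholipase that frees arachidonic acid, rose by 1.51 ± 0.24 (adjusted p = 9.43e-05). Ptgs2, cyclooxygenase 2, rose by 1.38 ± 0.31 (adjusted p = 0.00217), or 0.97 against the contralateral nerves of both days, and Ptgds, prostaglandin D2 synthase, fell by 1.38 ± 0.12 (adjusted p = 6.46e-08). A further increase, Pla2g2a, lost its call without contralateral replicate 2 or 3 or injured replicate 3 or 4, at changes between 0.96 and 1.17. It also lost its call in the fit of the 8 arrays of 3 DPI alone, at 1.31. A second gene of this list was called lower without contralateral replicate 1.

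Heme breakdown and iron genes had 5 higher and 0 lower of 29 (17.2% higher, against 3.25% of all genes, median 0.23). Hmox1, the enzyme that splits heme, had levels of 10.24, 10.20, 10.62 and 10.79 in injured nerves, against 6.93, 6.95, 7.10 and 7.19 in contralateral nerves, tight in the contralateral group, and rose by 3.42 ± 0.17 (10.7-fold, adjusted p = 1.92e-10). Cd163, which takes up hemoglobin into macrophages, had levels of 8.82, 8.37, 8.47 and 8.32 in injured nerves, against 7.34, 6.82, 6.59 and 6.80 in contralateral nerves and rose by 1.61 ± 0.17 (adjusted p = 1.25e-06). A gene of this list was called lower when contralateral replicate 1 was left out. Steap1 and Steap2, reductases of iron and copper, rose by 2.04 ± 0.15 and 2.02 ± 0.14. The mean of the 3 red blood cell markers lay between 7.19 and 7.68 in injured nerves and between 7.20 and 7.99 in contralateral nerves. Hmox1 is also a target of NRF2, the antioxidant regulator. Of 33 measured targets 3 rose, Hmox1 among them, and 4 fell, with a median of 0.07. These are 9.09% and 12.1% of the targets, against 3.25% and 2.55% of all genes. Ugdh, which makes UDP-glucuronate, rose by 1.34 ± 0.09 (adjusted p = 3.75e-09). The glutathione transferase Gsta4 had levels of 6.09, 6.01, 6.35 and 5.61 in injured nerves, against 8.81, 8.70, 8.74 and 8.37 in contralateral nerves, and it fell by 2.64 ± 0.16 (adjusted p = 1.61e-09). Slc7a11, the cystine importer, fell by 1.63 ± 0.29 and Me1, malic enzyme, by 1.26 ± 0.13. The third increase, Akr1b8, an aldo-keto reductase, was called at 1.20 ± 0.42 (adjusted p = 0.0347), but its adjusted p missed the threshold when contralateral replicate 3 or 4 or injured replicate 1, 2 or 4 was left out, at changes of 1.02, 1.05, 1.18, 1.05 and 1.22.

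**Figure D3:**
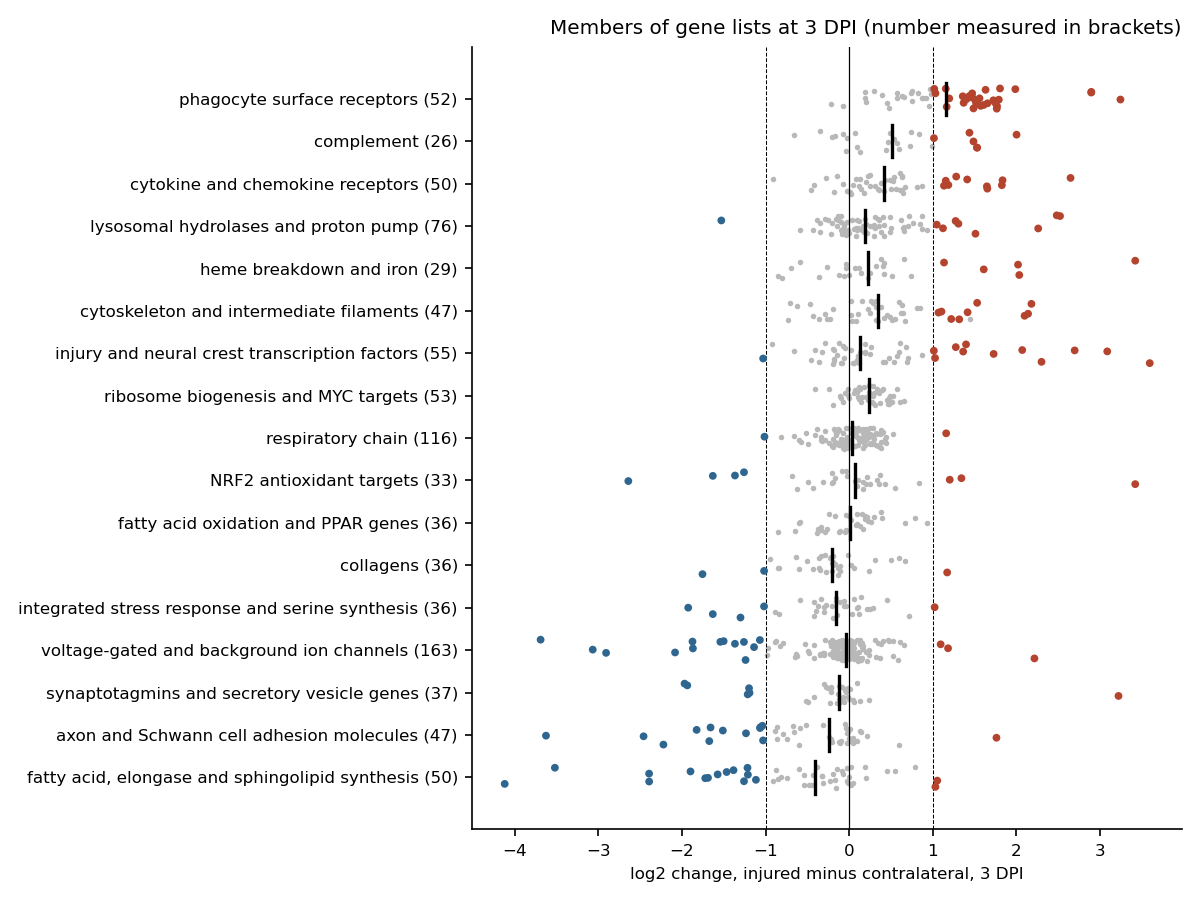
Log2 change, injured minus contralateral nerve at 3 DPI, of the measured members of 17 gene lists (number in brackets), with called genes in red (higher) and blue (lower), genes not called in grey, the list median as a black bar and a 2-fold change as dashed lines. Phagocyte surface receptors lie furthest to the right, with a median of 1.16, and fatty acid, elongase and sphingolipid genes furthest to the left, with a median of -0.41; a gene on several lists is drawn in each.

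Genes that make fatty acids and sphingolipids fell most often among the metabolic lists. Of 50 measured, 14 fell (28% against 2.55% of all genes) and 2 rose, with a median of -0.41, and 28 were lower by the adjusted p alone. Elovl7, an elongase of long-chain fatty acids, had levels of 7.16, 7.25, 7.28 and 7.30 in injured nerves, against 11.06, 11.58, 11.48 and 11.35 in contralateral nerves and fell by 4.12 ± 0.12 (adjusted p = 2.87e-13). Elovl6, another elongase, had levels of 8.36, 8.10, 8.60 and 8.34 in injured nerves, against 11.61, 11.98, 12.09 and 11.81 in contralateral nerves, again far apart, and fell by 3.52 ± 0.14 (adjusted p = 1.47e-11). Acss2, which makes acetyl-CoA from acetate, fell by 2.39 ± 0.11, and Aspa, which frees acetate from N-acetylaspartate, by 2.39 ± 0.10. Agpat2, an enzyme of triglyceride and phospholipid synthesis, rose by 1.05 ± 0.11 (adjusted p = 1.27e-06), or 0.89 against the contralateral nerves of both days, and Acsl5, an acyl-CoA synthetase, passed both thresholds at 1.03 ± 0.11 but reached only 0.98 without contralateral replicate 2, at 0.96 without contralateral replicate 3 and at 0.96 without injured replicate 4. The list of fatty acid oxidation and PPAR genes had no called gene by limma among 36 (median 0.02), with 22 at an unadjusted p under 0.05 and 1 gene called without contralateral replicate 4 or without injured replicate 3.

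Sugar and amino acid metabolism changed in a few genes. Of 25 glycolysis genes (median 0.16) 1 rose and 3 fell (4% and 12%, against 3.25% and 2.55% of all genes). By the adjusted p alone, 11 were higher and 4 lower. The 3 called decreases are forms of their enzymes known from brain, muscle and heart. Aldoc, aldolase C, had levels of 7.21, 7.13, 7.06 and 6.77 in injured nerves, against 9.31, 9.50, 9.34 and 9.39 in contralateral nerves and fell by 2.34 ± 0.10 (adjusted p = 1.65e-11), while Pfkm, the muscle form of phosphofructokinase, fell by 1.88 ± 0.10 and Ldhb, the heart form of lactate dehydrogenase, by 1.43 ± 0.07. Pfkfb4, which makes an activator of glycolysis, passed both thresholds at 1.06 ± 0.11 but reached only 0.99 without contralateral replicate 1, while a further gene was called higher without contralateral replicate 4 or injured replicate 3. On the list of the integrated stress response and serine synthesis, 4 of 36 fell (11.1%, against 2.55% of all genes, median -0.16). Psat1, which makes phosphoserine, had levels of 8.01, 8.13, 7.77 and 7.76 in injured nerves, against 9.94, 9.70, 10.03 and 9.70 in contralateral nerves, and fell by 1.92 ± 0.16 (adjusted p = 5.05e-08). Phgdh, the first enzyme of that path, fell by 1.30 ± 0.13 (adjusted p = 6.41e-07), and Atf5, a stress factor, passed both thresholds at -1.02 ± 0.08 but reached only -0.94 without injured replicate 1. Shmt1, which passes the serine carbon on to folate, passed both thresholds at 1.02 ± 0.13 but reached only 0.97 without contralateral replicate 3 and at 0.99 without injured replicate 4.

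Large groups of housekeeping genes held few called genes. Of 53 genes of ribosome biogenesis and MYC targets, none was called by limma with the fold minimum, but 27 were higher and 3 lower by the adjusted p alone, 35 had an unadjusted p under 0.05, and the list median was 0.23. Its mean level was 8.0 to 8.09 in injured nerves, against 7.78 to 7.85 in contralateral nerves. Of 203 ribosomal protein genes, 83 were higher and 4 lower by the adjusted p alone (median 0.27), and the 1 that was called, Rpl29l2 (-1.73 ± 0.17), is listed as a pseudogene by RefSeq and can share signal with its parent gene. A further ribosomal protein gene was called when contralateral replicate 1 or injured replicate 2 was left out. Proteasome genes had 23 higher and 1 lower of 44 by the adjusted p alone, none called by limma with the fold minimum, and a median of 0.21. Of 116 respiratory chain genes (median 0.04), the cytochrome oxidase subunit Cox5b rose by 1.16 ± 0.09 (adjusted p = 4.27e-08), and Ndufv2, of complex I, passed both thresholds at -1.01 ± 0.12 but reached only -0.99, -0.92 and -0.98 without contralateral replicate 2, injured replicate 1 and injured replicate 3. Endoplasmic reticulum chaperones had a median of 0.43, with 18 of 25 higher by the adjusted p alone. Only Sdf2l1 was called (1.12 ± 0.08, adjusted p = 8.96e-09), which is 4% of the list against 3.25% of all genes. It was joined by 1 more gene without contralateral replicate 2, contralateral replicate 4 or injured replicate 1.

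The largest decrease outside the lists set aside was that of Slc36a2, a transporter of small amino acids. It had levels of 6.69, 6.67, 7.01 and 6.64 in injured nerves, against 10.93, 11.02, 11.33 and 11.24 in contralateral nerves, and fell by 4.38 ± 0.13 (20.8-fold lower, adjusted p = 4.3e-13). Dusp15, a phosphatase known from oligodendrocytes, had levels of 7.32, 7.06, 7.10 and 7.24 in injured nerves, against 11.14, 11.33, 11.53 and 11.36 in contralateral nerves, and fell by 4.16 ± 0.11 (adjusted p = 1.16e-13). Dusp15 was not on the list of MAP kinase phosphatases on which Dusp10 rose. Vsnl1, a calcium sensor of neurons, had levels of 6.81, 6.78, 7.23 and 6.56 in injured nerves, against 10.46, 10.64, 11.17 and 10.63 in contralateral nerves, and fell by 3.88 ± 0.16 (adjusted p = 1.49e-11). Mt3, a metallothionein that binds zinc and copper, had levels of 8.23, 8.35, 7.99 and 8.35 in injured nerves, against 11.64, 11.81, 11.91 and 11.78 in contralateral nerves and fell by 3.55 ± 0.10 (adjusted p = 2.87e-13). In none of these genes did an injured array come within 3 log2 units of a contralateral array.

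Cntf, ciliary neurotrophic factor, which myelinating Schwann cells hold in their cytoplasm, had levels of 7.46, 7.44, 8.11 and 7.40 in injured nerves, against 11.04, 11.31, 11.20 and 11.15 in contralateral nerves, with injured replicate 3 above the other injured arrays, and fell by 3.57 ± 0.13 (11.9-fold lower, adjusted p = 5.64e-12). Fgf1, a fibroblast growth factor without a secretion signal, fell by 3.52 ± 0.12 (adjusted p = 1.85e-12). Cnmd, chondromodulin, an inhibitor of vessel growth known from cartilage, had levels of 8.13, 8.48, 8.54 and 8.30 in injured nerves, against 11.49, 11.75, 12.06 and 11.55 in contralateral nerves and fell by 3.35 ± 0.12 (adjusted p = 3.5e-12). B3galt2, a galactosyltransferase, fell by 3.82 ± 0.14, Svip, a small inhibitor of the VCP segregase, by 3.16 ± 0.12, the FERM domain protein Frmd3 by 3.26 ± 0.13, Sptb, a beta spectrin of the membrane skeleton, by 2.92 ± 0.12, S100a3, a calcium-binding protein, by 2.87 ± 0.12, and Cfap100, a cilium and flagellum protein, by 2.86 ± 0.19.

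Ion channels fell in 13 of 163 measured cases and rose in 3 (7.98% and 1.84%, against 2.55% and 3.25% of all genes), with a median of -0.04. Kcna1 and Kcna2, potassium channel subunits that sit beside the nodes of myelinated axons and whose mRNA Schwann cells can also hold, were both lower. Kcna1 had levels of 8.11, 7.51, 8.23 and 7.92 in injured nerves, against 10.21, 11.07, 11.33 and 10.80 in contralateral nerves, with contralateral replicate 1 the lowest of its group, and fell by 2.91 ± 0.23 (adjusted p = 2.62e-08). Kcna2 had levels of 7.25, 6.92, 7.25 and 7.33 in injured nerves, against 9.97, 10.52, 10.49 and 10.03 in contralateral nerves and fell by 3.07 ± 0.14 (adjusted p = 7.87e-11). Kcnk1, a background potassium channel, had levels of 7.52, 7.17, 7.47 and 7.32 in injured nerves, against 10.79, 11.02, 11.34 and 11.08 in contralateral nerves, and fell by 3.69 ± 0.13 (adjusted p = 2.16e-12). Kcnrg, a regulator of potassium channel assembly, fell by 2.08 ± 0.12. In the other direction, Scn3b, an auxiliary subunit of sodium channels, had levels of 9.39, 9.31, 8.66 and 9.28 in injured nerves, against 6.88, 6.95, 7.04 and 6.91 in contralateral nerves, with injured replicate 3 under the other injured arrays, and rose by 2.22 ± 0.19 (adjusted p = 9.33e-08). Trpv2, a cation channel of macrophages and sensory neurons, rose by 1.18 ± 0.12, and Kcne4, a potassium channel subunit, passed both thresholds at 1.10 ± 0.17 but reached only 0.95 without contralateral replicate 3.

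Adhesion molecules of axons and Schwann cells fell in 12 of 47 cases and rose in 1 (25.5% lower, against 2.55% of all genes, median -0.25). Lgi1, a secreted ligand of ADAM22 receptors, fell by 3.63 ± 0.19 (adjusted p = 2.24e-10), and Cadm3, which links Schwann cells with axons, by 2.46 ± 0.16 (adjusted p = 3.73e-09). Cdh1, E-cadherin, which holds the layers of myelin together at non-compact sites, had levels of 7.43, 7.18, 7.64 and 7.50 in injured nerves, against 9.22, 9.77, 10.14 and 9.51 in contralateral nerves, and fell by 2.22 ± 0.16 (adjusted p = 8.1e-09). Ncam1 fell by 1.82 ± 0.24. Nrcam, a partner of neurofascin at nodes, went the other way and rose by 1.76 ± 0.16 (adjusted p = 1.46e-07). L1cam (-1.06 ± 0.19), Cdh2 (-1.03 ± 0.22), Opcml (-1.07 ± 0.11) and Negr1 (-1.04 ± 0.12) were near the fold minimum. L1cam lay at -0.89 without contralateral replicate 3, and Cdh2 at -0.91 without that array and at -0.97 without injured replicate 1. Opcml lay at -0.97 without injured replicate 2 and Negr1 at -0.97, -0.99 and -0.97 without contralateral replicates 2 and 3 and injured replicate 4.

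Junction genes had 1 higher and 4 lower of 59 (1.69% and 6.78%, against 3.25% and 2.55% of all genes, median -0.07). Gja1, connexin 43, the gap junction protein of many mesenchymal and glial cells, had levels of 10.63, 10.70, 10.59 and 10.68 in injured nerves, against 9.30, 8.63, 8.40 and 9.42 in contralateral nerves and rose by 1.71 ± 0.19 (adjusted p = 1.4e-06). Cldn20, a claudin, fell by 2.30 ± 0.19 (adjusted p = 5.05e-08) and Jam3, a junctional adhesion molecule of Schwann cells and vessels, by 1.34 ± 0.09 (adjusted p = 5.9e-09). Cldn19, the other called decrease, is a myelin gene and among those set aside. Cldn5, the claudin of the vessel barrier, passed both thresholds at -1.06 ± 0.12 but reached only -0.97 without contralateral replicate 3. Genes of synaptotagmins and secretory vesicles had 1 higher and 5 lower of 37 (2.70% and 13.5%, against 3.25% and 2.55% of all genes, median -0.12). The increase was Syt4, a synaptotagmin that is induced by activity in neurons, with levels of 8.29, 9.26, 9.22 and 9.70 in injured nerves, against 5.92, 5.80, 5.86 and 5.99 in contralateral nerves, no overlap and a rise of 3.22 ± 0.22 (adjusted p = 5.27e-09). Snap25, a core protein of vesicle fusion, fell by 1.97 ± 0.18 (adjusted p = 1.93e-07), and Syt11, a synaptotagmin without calcium binding, had levels of 7.31, 7.15, 6.90 and 7.21 in injured nerves, against 8.68, 9.21, 9.47 and 8.95 in contralateral nerves and fell by 1.94 ± 0.14 (adjusted p = 1.14e-08). Vamp1 and Scg3, further genes of secretory vesicles, fell by 1.21 ± 0.09 and 1.20 ± 0.11.

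Of 36 collagen genes 1 rose and 2 fell (2.78% and 5.56%, against 3.25% and 2.55% of all genes). Col8a1, a short-chain collagen of vessel walls, rose by 1.17 ± 0.15, or 0.87 against the contralateral nerves of both days, Col9a1, known from cartilage, fell by 1.75 ± 0.23 (adjusted p = 1.16e-05), and Col5a3 passed both thresholds at -1.02 ± 0.16 but reached only -0.96, -0.94 and -0.96 without contralateral replicate 3, injured replicate 3 and injured replicate 4 (list median -0.21). Among provisional matrix and matrix assembly genes, 6 rose and 3 fell of 55 (10.9% and 5.45%, median 0.08). Lrrc15, a membrane protein of activated fibroblasts, had levels of 8.81, 9.14, 8.42 and 8.72 in injured nerves, against 6.21, 6.06, 5.50 and 5.80 in contralateral nerves, with no overlap, and rose by 2.88 ± 0.31 (adjusted p = 1.47e-06). Cthrc1, a secreted protein of remodelling vessels and wounds, had levels of 9.98, 10.22, 9.88 and 10.14 in injured nerves, against 8.78, 7.36, 6.58 and 7.94 in contralateral nerves and rose by 2.39 ± 0.37 (adjusted p = 7.04e-05), with contralateral replicate 1 the highest and replicate 3 the lowest of their group. Thbs2, a thrombospondin, rose by 1.52 ± 0.18, while Sparcl1, a matricellular protein, fell by 1.64 ± 0.11 and Ccn4 by 1.24 ± 0.10. Vtn, vitronectin, passed both thresholds at -1.07 ± 0.15 but reached only -0.93 without injured replicate 1 and at -1.0, just under the minimum, without contralateral replicate 1.

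Laminins and integrins had 3 higher and 2 lower of 35 (8.57% and 5.71%, against 3.25% and 2.55% of all genes), and the 3 increases were the leukocyte integrins Itgb2 (1.63 ± 0.17), Itgam (1.44 ± 0.13) and Itgal (1.36 ± 0.13). Lama2, the laminin chain of the Schwann cell basal lamina, fell by 1.07 ± 0.06 (adjusted p = 7.91e-10), with -0.97 against the contralateral nerves of both days, and Itgb4, a laminin receptor of Schwann and perineurial cells, by 1.22 ± 0.12 (adjusted p = 5.86e-07). Matrix proteases and inhibitors had 6 higher and 3 lower of 68 (8.82% and 4.41%, against 3.25% and 2.55% of all genes, median -0.06). Adam12, a metalloprotease of fusing and activated cells, rose by 1.76 ± 0.17 (adjusted p = 3.04e-07), and Serpine2, protease nexin 1, a thrombin inhibitor made by glia, by 1.52 ± 0.12 (adjusted p = 3.1e-08). Adamts17 and Adamts5 each fell by 1.23, with standard errors of 0.14 and 0.14. Mmp15, a membrane-bound matrix protease, passed both thresholds at -1.11 ± 0.14 but reached only -0.97 without contralateral replicate 3.

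The cytoskeleton list, which also held Lgals3, had 9 higher and 0 lower of 47 (19.1% higher, against 3.25% of all genes, median 0.34). Lgals3, galectin 3, is a lectin and no part of the cytoskeleton, and macrophages and Schwann cells make it while they clear myelin. It rose by 2.18 ± 0.11 (adjusted p = 1.1e-10). Tubb2b, a tubulin of young neurons and glia, rose by 2.10 ± 0.11 (adjusted p = 2.23e-10) and Dpysl3, of the collapsin response family, by 1.53 ± 0.15 (adjusted p = 3.38e-07). Nefm, a neurofilament of axons, was the least even of the called genes named here. Its levels were 9.40, 10.03, 5.85 and 9.33 in injured nerves, against 6.26, 6.80, 6.51 and 6.47 in contralateral nerves, so injured replicate 3 lay under every contralateral array while the other injured arrays lay above them all. The change of 2.14 ± 0.70 (adjusted p = 0.0261) lost its call when injured replicate 1, 2 or 4 or contralateral replicate 1, 3 or 4 was left out, at changes between 1.68 and 2.14.

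Transporters of the solute carrier families had 9 higher and 14 lower of 359 (2.51% and 3.90%, against 3.25% and 2.55% of all genes). Of the increases, Slc37a2, Slc39a6 and Slc46a3 lost their call when an array was left out. So did Slc19a3, Slc25a27, Slc6a8 and Slc7a2 among the decreases. Beside Slc36a2, Slco4c1, an organic anion transporter, fell by 2.08 ± 0.17 and Slc5a3, the sodium-dependent importer of inositol, by 1.56 ± 0.14. Slc22a23, a carrier with no settled substrate, rose by 1.66 ± 0.12 (adjusted p = 1.14e-08), Slc39a12, a zinc importer, by 1.56 ± 0.24 and Slc16a7, a lactate and pyruvate carrier, by 1.27 ± 0.17, or 0.98 against the contralateral nerves of both days. Of 113 aldehyde dehydrogenases, cytochromes P450 and glutathione transferases, 6 fell and 2 rose (5.31% and 1.77%, against 2.55% and 3.25% of all genes). The decreases included Gstm7 (-2.30 ± 0.12) and Cyp39a1, which acts on oxysterols (-1.44 ± 0.12). Cyp51, another of them, is a sterol synthesis gene and among those set aside. Aldh1a2, which makes retinoic acid, rose by 1.22 ± 0.18 (adjusted p = 3.41e-05), or 0.76 against the contralateral nerves of both days, and Cyp2j10 passed both thresholds at 1.01 ± 0.15 but lay between 0.88 and 0.98 without contralateral replicate 1 or 4 or injured replicate 1 or 3. Serpins had 3 higher of 46 (6.52%, against 3.25% of all genes), namely Serpine2, Serpinb8 (1.42 ± 0.18) and Serpinb1a (1.01 ± 0.20). Serpinb1a lay at 0.82, 1.0, 1.0 and 0.99 without contralateral replicate 3, contralateral replicate 4, injured replicate 2 and injured replicate 3.

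Among 27 p53 targets and cell death genes, 2 rose and 0 fell (7.41% higher, against 3.25% of all genes, median 0.15). Plk2, a kinase of the stress response, was called at 1.04 ± 0.15 and Ripk3, a kinase of necroptosis, at 1.04 ± 0.15. Plk2 lay at 0.87 and 0.97 without contralateral replicate 3 and injured replicate 4, and at 1.0, just under the minimum, without contralateral replicate 4. Ripk3 lay at 0.97, 0.98 and 0.94 without contralateral replicate 1, contralateral replicate 3 and injured replicate 4. Hypoxia-inducible genes had 2 higher and 1 lower of 22 (9.09% and 4.55%, against 3.25% and 2.55% of all genes, median -0.02), namely Adm and Pfkfb4, given above, and Ndrg1, a stress gene that Schwann cells need, which fell by 1.50 ± 0.09 (adjusted p = 1.61e-09). Circadian clock genes had none called by limma among 17 (median -0.26), with 10 at an unadjusted p under 0.05 and 1 called lower without contralateral replicate 4. Of 20 adhesion G protein-coupled receptors, only Adgre5, the leukocyte receptor CD97, was called (1.08 ± 0.11), which is 5% against 3.25% of all genes. It lay at 1.0, just under the minimum, without injured replicate 4. A second gene was called higher without contralateral replicate 3 or injured replicate 3, and 1 gene lower without injured replicate 3. Of 68 genes whose symbols start as those of olfactory receptors do, 1 was called, and that was Olr1, which is no olfactory receptor.

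The injury effect at 3 DPI was set against that at 7 DPI in the same fit, each day with its own contralateral nerves. The difference between the effects was called for 70 of 18166 genes, a background of 0.385%, and 32 of them were among the 868 genes described here. Of these 32, 16 were higher at 3 DPI by more than at 7 DPI, 4 higher by less, 5 lower by more and 7 lower by less. The contralateral nerves of the 2 days differed in 2 called genes, with 2029 at an unadjusted p under 0.05. Syt4 changed by 3.22 ± 0.22 at 3 DPI and by -0.04 ± 0.22 at 7 DPI, a difference of 3.26 ± 0.31 (adjusted p = 2.93e-05). Clca4l had 3.81 ± 0.24 at 3 DPI and 0.53 ± 0.24 at 7 DPI (adjusted p = 7.65e-05), and Hmox1 had 3.42 ± 0.17 at 3 DPI and 0.94 ± 0.17 at 7 DPI (adjusted p = 4.4e-05). None of these 3 genes was past 2-fold at 7 DPI. Tyrp1 was still higher at 7 DPI, at 2.08 ± 0.38, and Ucn2 at 3.27 ± 0.18, both by less than at 3 DPI (adjusted p = 0.00252 and adjusted p = 0.00154). Cd163 had 1.61 ± 0.17 at 3 DPI and 0.48 ± 0.17 at 7 DPI, and Atp6v0d2 2.52 ± 0.20 at 3 DPI and 1.05 ± 0.20 at 7 DPI. Among the decreases, Cnmd (-3.35 ± 0.12 at 3 DPI, -5.29 ± 0.12 at 7 DPI), Elovl6 and Elovl7 fell by less at 3 DPI than at 7 DPI, and Syt11 (-1.94 ± 0.14 at 3 DPI, -0.71 ± 0.14 at 7 DPI) fell by more. For Dusp10, Runx2, Slc36a2 and Mt3 the differences between the days were 0.59 ± 0.17, 0.27 ± 0.19, 0.17 ± 0.18 and 0.14 ± 0.14, none of them called.

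**Figure D4:**
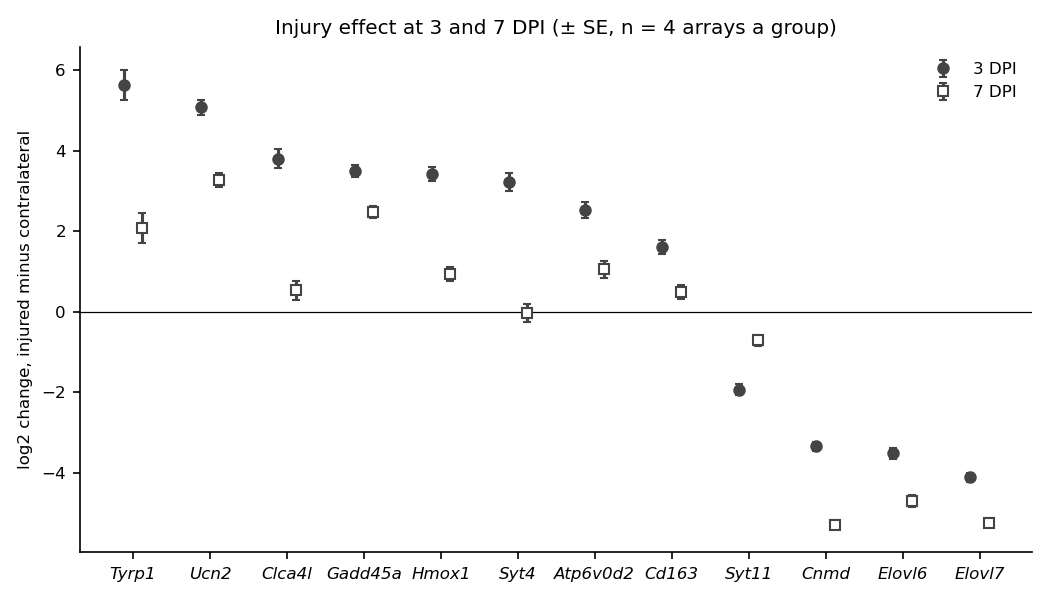
Log2 change, injured minus contralateral nerve, at 3 DPI (filled circles) and at 7 DPI (open squares) with its standard error (n = 4 arrays a group), for 12 genes named above whose injury effect was called as different between the days. The genes were chosen for this difference, so the plot describes it, and Syt4 goes with 3.22 ± 0.22 at 3 DPI and -0.04 ± 0.22 at 7 DPI.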

How the data were processed

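The deposited values were log2 RMA values of 36685 probe sets on 16 Affymetrix Rat Gene 2.0 ST arrays, 4 per group. Per the labels and methods, the authors extracted RNA from the nerves, hybridised 1 array per biological replicate, and background-corrected, quantile-normalised and summarised the probes with the oligo package, whose version is not given in the sources used here. Gene symbols came from the platform annotation. The 18511 probe sets with 1 symbol were reduced to 18166 genes, with the probe set brightest on average over 16 arrays kept, and 575 with several symbols and 17599 with none were left out. No value was filtered. Array medians lay between 6.27 and 6.40, and precision is limited by how many arrays each group has.

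Group means were fitted over 16 arrays with limma 3.58.1 (R 4.3.3), with 12 residual degrees of freedom and Benjamini-Hochberg adjustment over all genes. The errors of changes are standard errors. The fit was tested on simulated data. Of the 18166 genes, 18059 were found in RefSeq, and 14503 had a promoter there (GRCr8). Genes were named by a rule: the 20 largest non-overlapping increases and decreases outside the lists set aside, and up to 4 called members of each list in each direction, with cell markers. The members and lists were chosen with earlier results of these data known. Alternatives covered normalisation, filtering, weights, the choice of probe set, each array left out, and contralateral arrays of both days pooled.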

Additional observations from a re-analysis of the deposited data

Results flagged for a closer look

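Single arrays that stood apart from the other 3 of their group by Dixon's test were counted over 48 genes and 6 list means, 108 groups in all, of which 9 had such an array. Chance alone gives about 1 in 20. Injured replicate 3 stood apart in Slc36a2 (7.01), Cntf (8.11), Scn3b (8.66) and Nefm (5.85), as log2 levels, lying above the other injured arrays for Slc36a2 and Cntf and under them for Scn3b and Nefm. Contralateral replicate 4 stood above the other contralateral arrays in Ucn2 (6.61) and Jun (9.16), and contralateral replicate 1 stood under them in Lgr5 (9.46). Among the list means, contralateral replicate 3 was high for fatty acid, elongase and sphingolipid genes (9.0), and contralateral replicate 1 was low for ribosome biogenesis genes (7.78). Nefm was the only one of these genes in which an injured array lay on the other side of the contralateral arrays.

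The injury effect differed between the days, by limma's test of the difference and at least 2-fold, in 12 of the genes given array by array. As the effect at 3 DPI minus that at 7 DPI, the difference among increases was 3.54 for Tyrp1, 1.81 for Ucn2, 3.28 for Clca4l, 1.01 for Gadd45a, 2.48 for Hmox1, 1.13 for Cd163, 3.26 for Syt4 and 1.47 for Atp6v0d2 on the log2 scale. Among decreases it was 1.18 for Elovl6, 1.12 for Elovl7, 1.95 for Cnmd and -1.22 for Syt11, where a positive value is a smaller fall at 3 DPI.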

How the results depend on the processing

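Without a fold minimum, 6084 genes passed the adjusted p, 3420 higher and 2664 lower, 5808 of them outside the lists set aside, and the injury effect differed between the days in 312. All other alternatives kept these 5 counts within 1.5 times. Leaving out each array in turn gave 991 to 1128 called genes (557 to 619 higher, 427 to 512 lower), 804 to 941 of them outside the lists set aside, and 58 to 97 genes that differed between the days. Against the contralateral arrays of both days pooled, 934 were called. Median centring, which moved the median change of all genes by -0.05, gave 546 higher and 508 lower, and cyclic loess gave 557 and 492. The labels do not say whether nerves of the same number came from the same rat. Deviations from the group means of same-numbered nerves correlated at -0.06, 0.077, 0.054 and 0.223 at 3 DPI and -0.081, 0.166, 0.086 and 0.037 at 7 DPI, and numbers 3 and 4 at 3 DPI and 2 and 3 at 7 DPI correlated best with their own number. With the number as a block 1055 genes were called on the 8 arrays (868 outside the lists set aside), while 66 differed between the days in the blocked fit of 16 arrays. Of 183 called genes that the naming rule chose, 52 lost their call under at least 1 alternative and 0 changed direction, and of 78 list counts 21 moved by over 1.5 times under an alternative other than the fold minimum, all of them counts of 0 to 2 genes as given above.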

Other observations

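Most called genes lay on none of the lists above: 641 of the 868 genes outside the myelin, sterol and division lists. The genes named from them here were chosen after their values were seen, and no statement about a group is made from them. Abca1, which exports cholesterol from cells, rose by 2.73 ± 0.07 (adjusted p = 1.16e-13). Its levels were 11.07, 11.12, 10.89 and 11.08 in injured nerves, against 8.31, 8.37, 8.19 and 8.37 in contralateral nerves, with no overlap. Pla2g7, a secreted lipase of macrophages that cleaves platelet-activating factor, rose by 2.39 ± 0.22 (adjusted p = 2.54e-07), and Cybb and Ncf1, parts of the oxidase with which phagocytes make superoxide, rose by 1.78 ± 0.25 and 1.54 ± 0.12. Crabp2, a carrier of retinoic acid, had levels of 10.87, 10.84, 10.70 and 10.79 in injured nerves, against 8.44, 8.32, 8.64 and 8.60 in contralateral nerves and rose by 2.30 ± 0.11 (adjusted p = 9.83e-11). Epcam, an adhesion molecule of epithelial cells, had levels of 7.07, 6.54, 6.90 and 7.39 in injured nerves, against 4.70, 4.82, 4.58 and 5.05 in contralateral nerves, and rose by 2.19 ± 0.17 (adjusted p = 1.97e-08). Ninj1, which ruptures the membrane of dying cells and was first found in injured nerve, rose by 1.94 ± 0.10 (adjusted p = 1.44e-10).

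Among the decreases, Lgr5, a receptor of R-spondins known from stem cells of the gut, had levels of 7.27, 7.31, 6.96 and 7.36 in injured nerves, against 9.46, 9.84, 9.87 and 9.82 in contralateral nerves, and fell by 2.52 ± 0.11 (adjusted p = 4.43e-11). Mgll, which breaks down the endocannabinoid 2-arachidonoylglycerol, fell by 2.45 ± 0.10 (adjusted p = 1.65e-11), and Rxrg, a retinoid X receptor, by 1.65 ± 0.13 (adjusted p = 2.98e-08). Stmn2, which binds tubulin in growing axons, had levels of 6.29, 6.84, 5.50 and 6.02 in injured nerves, against 8.19, 8.33, 8.48 and 8.36 in contralateral nerves and fell by 2.18 ± 0.21 (adjusted p = 2.98e-07). Kif1a, a motor of axonal transport, fell by 2.10 ± 0.11 (adjusted p = 4.14e-10), and Nmnat2, the enzyme whose loss sets off the breakdown of cut axons in mice, by 1.54 ± 0.09 (adjusted p = 6.02e-10). Nefm, a neurofilament gene, was called in the other direction, as given above.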
